A study of Mus musculus with 8 samples.

Results

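The genes described here encode the enzymes of glycolysis, lactate handling and glycogen turnover in mouse soleus muscle. They were chosen by name: probe sets annotated to 1 gene symbol were kept when that symbol was among 37 symbols, and the brightest probe set over all 8 arrays stood for its gene. Pkm and Pkm2 are names of 1 gene, so the list covers 36 genes. Of these, 32 were measured among the 19938 genes of the series: 18 of glycolysis, 4 of lactate handling and 10 of glycogen turnover. The other 4 were not analysed here. Gapdh, whose 25 probe sets all carry several symbols, was left out by the rule, and Gpi1, Eno1 and Pfkfb1 had no probe set with their symbol in the annotation used. None of the 32 lies in the segments that Ts65Dn mice carry in 3 copies.

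Soleus was taken from 4 male Ts65Dn mice and from 4 male wild-type (WT) controls of the colony, whose strain is B6EiC3SnF1/J, a mix of the B6 and C3H backgrounds. Each muscle sample was read on 1 array, and the samples are labelled as biological replicates. Ts65Dn mice, a model of Down syndrome, carry an extra marker chromosome with parts of chromosomes 16 and 17. Both groups were 5 months old, appeared healthy, and were sampled in the basal state under pentobarbital anaesthesia. Values are log2 RMA values, so a difference of 1 is a doubling of the signal.

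Glycolysis splits glucose into pyruvate in the cytosol and gains ATP without oxygen. Phosphofructokinase is its main control point, and the bifunctional PFKFB enzymes make and remove its activator. In muscle, pyruvate is turned into lactate by lactate dehydrogenase, and monocarboxylate transporters carry lactate across the membrane. Glycogen is the muscle's own glucose store. Synthase and the branching enzyme build it on a glycogenin primer, and phosphorylase, which phosphorylase kinase switches on when calcium rises, breaks it down. The soleus is a slow, oxidative postural muscle, and fast muscles rely more on these enzymes.

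The arrays themselves differed between the groups. The array median over genes was 4.57 to 4.65 in Ts65Dn and 4.72 to 4.86 in WT, and the interquartile range was 2.70 to 2.81 in Ts65Dn and 2.09 to 2.48 in WT. WT replicates 2 and 3 had the narrowest ranges, 2.23 and 2.09. Genes outside the lists used here had a median log2 fold change (Ts65Dn minus WT) of -0.22 at a mean level up to 5 and of 0.31 between 7 and 9. For this reason fold changes are set beside the median of the 100 genes nearest in mean level, and values without WT replicates 2 and 3 are given as well. Slow fibre markers such as Tnnc1 (12.29 ± 0.05 in Ts65Dn and 12.29 ± 0.02 in WT, SD, n = 4 each) were bright on all arrays. Its fast counterpart Tnnc2 was bright too (12.32 ± 0.06 in Ts65Dn and 12.25 ± 0.04 in WT, SD, n = 4 each). In Ts65Dn replicate 4 the fast myosin heavy chain Myh4 was at 10.52, against 5.89 to 6.76 on the other 7 arrays. In whole muscle, fewer cells of a type and less RNA per cell cannot be told apart.

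With the Benjamini-Hochberg adjusted p of limma held under 0.05, 0 of the 32 genes were called higher and 0 lower in Ts65Dn. Over all genes 2.32% were called higher and 2.94% lower, 5.26% in all. At an unadjusted p under 0.05, 9 of the 32 genes (28.1%) stood out, against 34.8% of all genes. Of these 9, 7 were higher in Ts65Dn, where 12.3% of all genes were, and 2 were lower, where 22.6% of all genes were. Dim genes weigh heavily in these shares, while 27 of the 32 genes lay above the median level of all genes. In the fit over all genes, these 27 held all 7 higher genes and 1 lower gene. Among the 9969 genes above that level, fitted alone, 2067 were higher and 1438 lower at an unadjusted p under 0.05. In that fit Phka1, among the 7 above, no longer counted as higher, with a limma unadjusted p of 0.0549. Leaving out WT replicate 1 brought 4 of the 9 (Phkg1, Gys1, Pfkfb2 and Phkb) past the adjusted threshold as higher, with limma adjusted p-values from 0.0348 to 0.0456, beside 6.09% of all genes. The 32 adjusted p-values ran from 0.0634 to 0.993. The 3 groups of genes had different medians. The 10 glycogen genes had a median log2 fold change of 0.38, and 9 of them were positive. The 18 glycolysis genes had a median of 0.03 with 11 positive values, and the 4 lactate genes a median of -0.04 with 1 positive value. Over all genes the median was -0.10, and 39.2% of values were positive. Among the 9969 genes above the median level the median was 0.11, and 6047 values were positive. The 27 members above that level had a median of 0.22 with 20 positive values. Centring each array on its median added 0.18 to the fold changes, which turns the lactate median to 0.14 and puts the medians at 0.22 for glycolysis and 0.57 for glycogen.

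**Figure D1:**
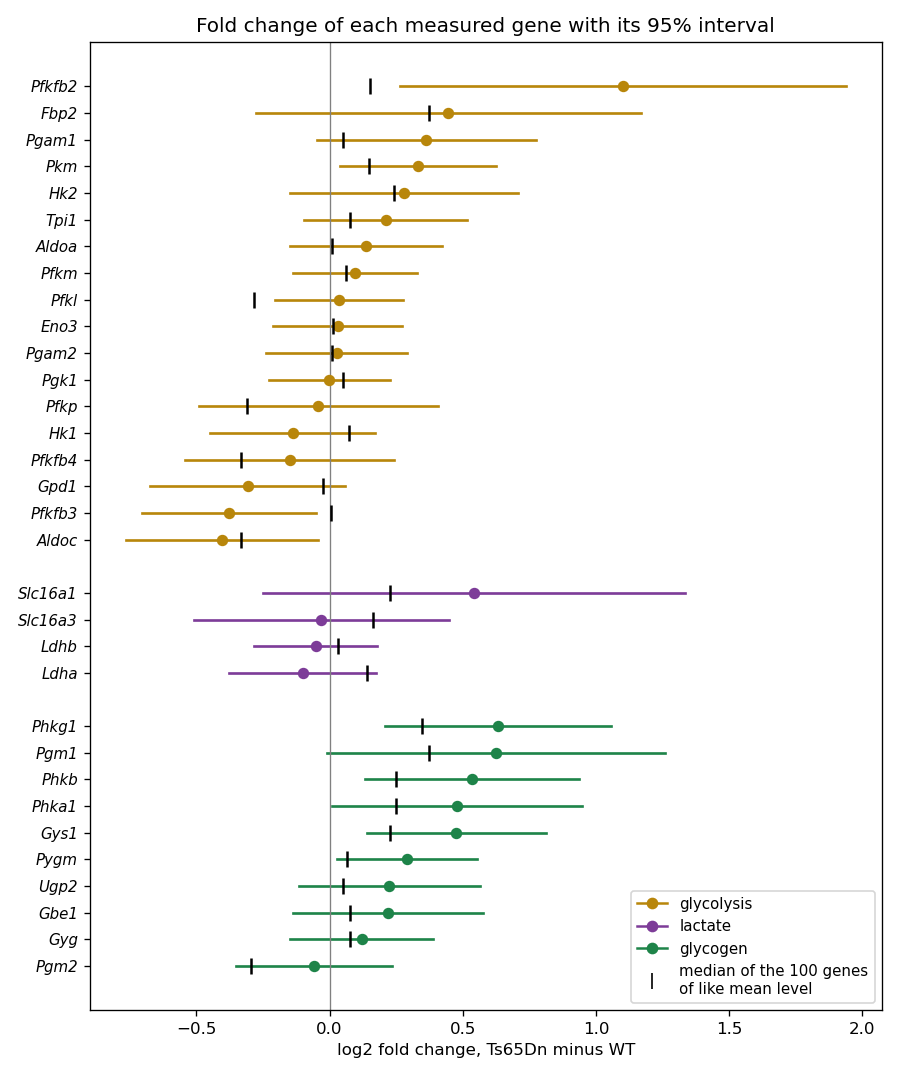
Log2 fold change (Ts65Dn minus WT, x axis) of each of the 32 genes, with its 95% interval from limma as a line and the median of the 100 genes of like mean level as a black tick, in the groups glycolysis, lactate and glycogen. All 10 glycogen genes lie to the right of their tick, and Pfkfb2 has the highest value, 1.10.

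Glycogen breakdown is described first. Phosphorylase kinase is built from regulatory, catalytic and calmodulin subunits. Phkg1, the catalytic subunit of muscle, was at 7.17, 6.90, 7.31 and 7.13 in Ts65Dn replicates 1 to 4 and at 6.92, 6.22, 6.08 and 6.73 in WT replicates 1 to 4. Only Ts65Dn replicate 2 fell within the WT range, and WT replicates 2 and 3 were the lowest. The means were 7.12 ± 0.17 in Ts65Dn and 6.49 ± 0.40 in WT (SD, n = 4 each), a log2 fold change of 0.63 (SE 0.19, 1.55-fold) with a limma adjusted p of 0.0634. The 100 genes of like level had a median of 0.35, and 78 of them were positive. Without WT replicates 2 and 3 the Phkg1 value was 0.30.

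Phkb, the regulatory beta subunit, was at 8.65, 8.62, 8.60 and 8.26 in Ts65Dn and at 8.34, 8.22, 7.54 and 7.89 in WT. Only Ts65Dn replicate 4 lay below the highest WT array. Its log2 fold change was 0.53 (SE 0.18, 1.45-fold, limma adjusted p = 0.0777), and without WT replicates 2 and 3 it was 0.42. Level matching left 0.30. Phka1, the alpha subunit of muscle encoded on the X chromosome, was at 8.41, 8.34, 8.65 and 8.50 in Ts65Dn and at 8.36, 7.65, 7.51 and 8.46 in WT. WT replicates 1 and 4 lay within the Ts65Dn range and WT replicates 2 and 3 well below it. The difference of 0.48 on the log2 scale (SE 0.21, limma adjusted p = 0.139) was 0.06 without those 2 arrays and 0.26 after level matching. Genes of like level had a median of 0.25 for both subunits.

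Pygm, the muscle phosphorylase whose loss in people causes McArdle disease, was at 11.19, 11.15, 11.24 and 11.15 in Ts65Dn and at 11.04, 10.94, 10.65 and 10.94 in WT. The groups did not overlap. The difference in means was small, 11.18 ± 0.04 in Ts65Dn and 10.89 ± 0.17 in WT (SD, n = 4 each), a log2 fold change of 0.29 (SE 0.12, 1.22-fold) with a limma adjusted p of 0.115. The genes of like level had a median of 0.07. Without WT replicates 2 and 3 the value was 0.19.

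On the side of synthesis, Gys1, the muscle glycogen synthase, was at 9.31, 9.40, 9.47 and 9.31 in Ts65Dn and at 9.22, 8.77, 8.55 and 9.05 in WT. Every Ts65Dn array lay above every WT array. The means were 9.37 ± 0.08 in Ts65Dn and 8.90 ± 0.30 in WT (SD, n = 4 each), a log2 fold change of 0.48 (SE 0.15, 1.39-fold, limma adjusted p = 0.0690), and 0.24 without WT replicates 2 and 3. Genes of like level had a median of 0.23, and level matching left 0.23 for Gys1. Pgm1, a phosphoglucomutase that links glucose 6-phosphate to glycogen, was at 7.71, 7.69, 8.03 and 8.07 in Ts65Dn and at 7.56, 7.62, 6.22 and 7.60 in WT. The groups did not overlap, but WT replicate 3 alone lay more than 1 log2 unit below the other WT arrays. The log2 fold change was 0.62 (SE 0.29, limma adjusted p = 0.148), and 0.28 without WT replicate 3. It was also 0.28 after level matching, as genes of like level had a median of 0.37. Older annotation uses the names Pgm1 and Pgm2 the other way round. The Pgm1 given here is the gene on chromosome 4, and Pgm2, a related phosphoglucomutase on chromosome 5, stood at a log2 fold change of -0.06 (adjusted p = 0.763).

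The remaining 3 glycogen genes had smaller values. The glycogenin gene Gyg, which primes each glycogen particle, had a log2 fold change of 0.12. Ugp2, which makes UDP-glucose, had one of 0.22, and the branching enzyme Gbe1 one of 0.22. Their limma adjusted p-values ran from 0.307 to 0.484. Without WT replicates 2 and 3 all 3 were slightly negative, at -0.01 for Gyg, -0.04 for Ugp2 and -0.02 for Gbe1.

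For the 4 glycogen genes with the smallest p-values, the 250 bases before the transcription start are shown, so that their promoters can be compared. The sequences are from RefSeq, build GRCm38.p6, written in the direction of transcription, and capitals mark the E-box CANNTG, which myogenic and other helix-loop-helix factors can bind.
Phkg1, chr5:129879089-129879338, minus strand: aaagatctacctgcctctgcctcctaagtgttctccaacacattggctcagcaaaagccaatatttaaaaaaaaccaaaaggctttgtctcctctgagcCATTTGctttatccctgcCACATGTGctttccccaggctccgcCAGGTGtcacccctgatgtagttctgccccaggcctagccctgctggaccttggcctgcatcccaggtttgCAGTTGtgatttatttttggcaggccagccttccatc
Gys1, chr7:45434589-45434838, plus strand: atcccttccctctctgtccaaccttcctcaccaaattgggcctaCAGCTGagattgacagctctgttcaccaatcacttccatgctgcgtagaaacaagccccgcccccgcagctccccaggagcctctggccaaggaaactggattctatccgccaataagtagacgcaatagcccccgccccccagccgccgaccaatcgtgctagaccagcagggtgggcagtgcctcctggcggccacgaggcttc
Phkb, chr8:85840738-85840987, plus strand: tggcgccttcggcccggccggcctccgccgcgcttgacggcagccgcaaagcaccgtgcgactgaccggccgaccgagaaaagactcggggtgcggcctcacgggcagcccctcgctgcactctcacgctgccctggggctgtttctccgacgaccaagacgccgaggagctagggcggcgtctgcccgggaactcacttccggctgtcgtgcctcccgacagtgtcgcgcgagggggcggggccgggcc
Pygm, chr19:6384158-6384407, plus strand: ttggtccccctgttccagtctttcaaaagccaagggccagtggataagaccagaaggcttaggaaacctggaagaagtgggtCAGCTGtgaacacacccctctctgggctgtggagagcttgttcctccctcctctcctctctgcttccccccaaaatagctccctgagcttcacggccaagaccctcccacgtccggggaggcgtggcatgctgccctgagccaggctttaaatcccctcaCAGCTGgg
The 4 windows differ in make-up. Phkg1 holds 5 E-boxes, of which 2 overlap each other, Pygm 2, Gys1 1 and Phkb 0. Motifs were counted on either strand, so a match can read as its reverse complement in the printed sequence. An E-box occurs in 66.2% of the 32817 promoter windows of the same length. The GC box GGGCGG occurs 2 times each in Gys1 and Phkb and not in Phkg1 or Pygm, beside 32.7% of windows. In Gys1 both are printed as CCGCCC. The CCAAT box CCAAT occurs 4 times in Gys1 and 2 times in Phkg1, beside 33.8% of windows. The one farthest from the start is printed as ATTGG in both genes. No E-box overlaps a GC or CCAAT box. The G and C content was 73.2% in Phkb, 60.0% in Gys1, 58.4% in Pygm and 50.8% in Phkg1.

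**Figure D2:**
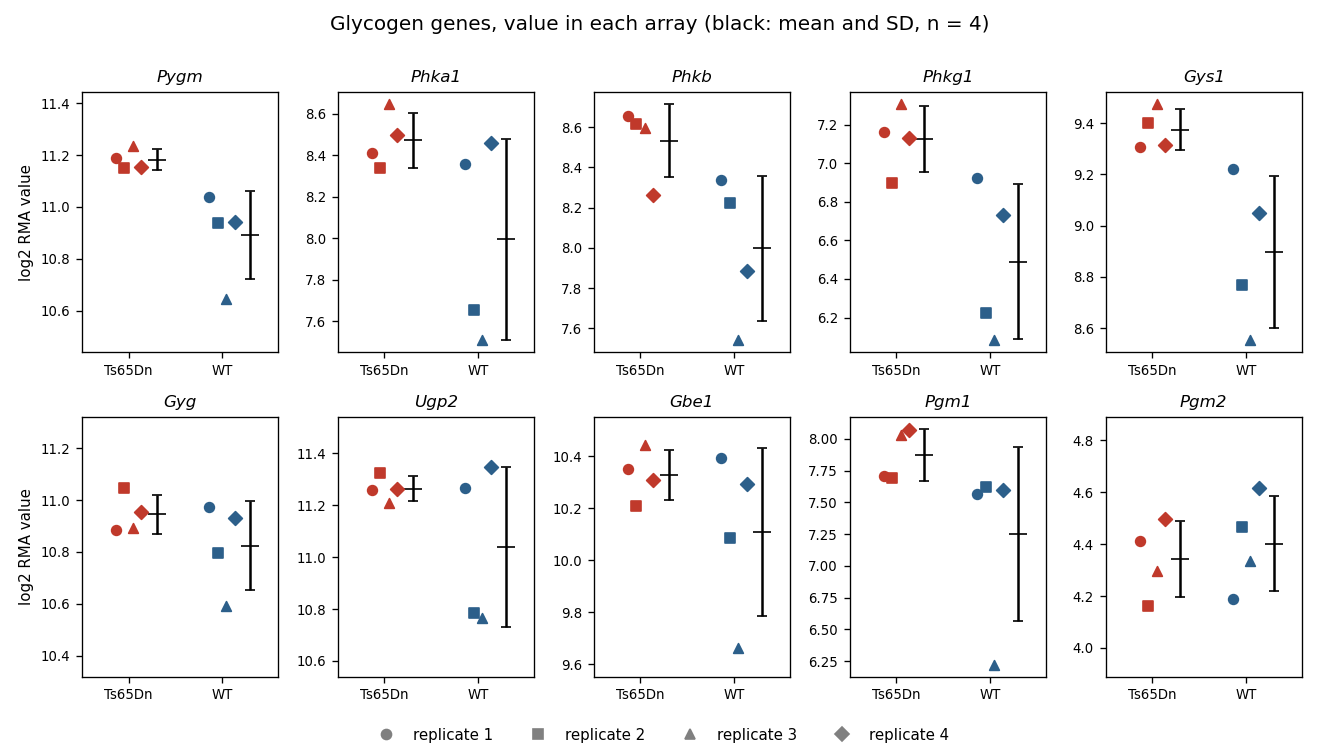
Log2 RMA value (y axis) of the 10 glycogen genes in each Ts65Dn array (left) and WT array (right), with the marker shape giving the replicate number and black bars the mean and SD of 4 arrays. WT replicate 3 (triangle) is the lowest of all arrays for 9 of the 10 genes, and for Pygm, Gys1 and Pgm1 no WT array reaches the Ts65Dn range.

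In all, 4 of the 32 genes (Pygm, Gys1, Pgm1 and the glycolytic gene Pkm) had every Ts65Dn array above every WT array and 0 had every Ts65Dn array below, against 6.81% and 15.9% of all genes. These shares include the dim genes, which leaned lower in Ts65Dn. All 4 named genes lay above the median level, and no such share was counted for genes of that level. At an adjusted p under 0.1 there were 4 higher members (Phkg1, Gys1, Phkb and Pfkfb2), against 8.8% of all genes, and 0 lower members, against 16.1%. Among the 9969 genes above the median level, fitted alone, 1432 were higher and 1054 lower at that threshold. For 22 of the 32 genes the lowest array was WT replicate 2 or 3, beside 49.8% of the genes above the median level and 75.1% of the genes with a mean level over 7. The SD was larger in WT than in Ts65Dn for 26 of the 32 genes (81.25%), 10 of them glycogen genes, beside 67.25% of all genes and 82.67% of those with a mean level over 7.

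Stated per array, the glycogen genes had a median deviation from their own mean of 0.15, 0.12, 0.28 and 0.12 in Ts65Dn replicates 1 to 4 and of 0.09, -0.12, -0.57 and 0.04 in WT replicates 1 to 4. WT replicates 1 and 4 thus lay just below the Ts65Dn arrays. Without WT replicates 2 and 3 the glycogen median was 0.13 with 6 of 10 positive values, beside 0.02 for glycolysis and -0.08 for lactate genes. Of all genes, dim ones included, 41.2% were then positive. The share among genes above the median level, where 9 of the 10 glycogen genes lay, was not counted without those arrays. After subtraction of the genes of like level, the medians were 0.23 for glycogen, 0.07 for glycolysis and -0.09 for lactate genes, and 10 of 10 glycogen values, from 0.05 to 0.30, were positive.

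**Figure D3:**
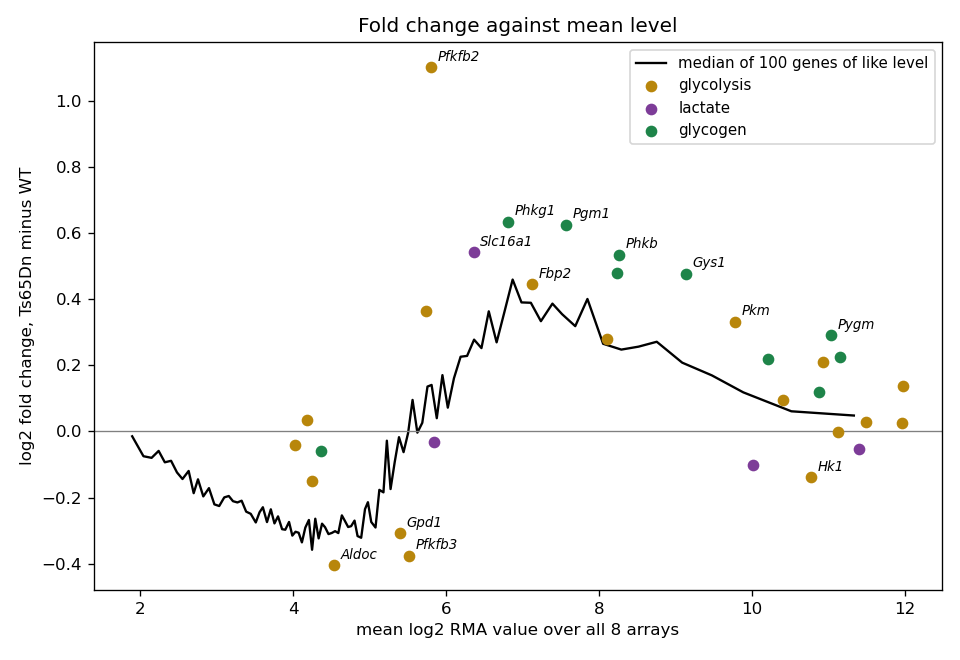
Log2 fold change (Ts65Dn minus WT, y axis) against the mean log2 RMA value over all 8 arrays (x axis) for the 32 genes, coloured by group, with the median of the 100 genes of like level as a black line. The line runs below 0 at low levels and above 0 at high levels, and 24 of the 32 genes lie above it.

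**Figure D4:**
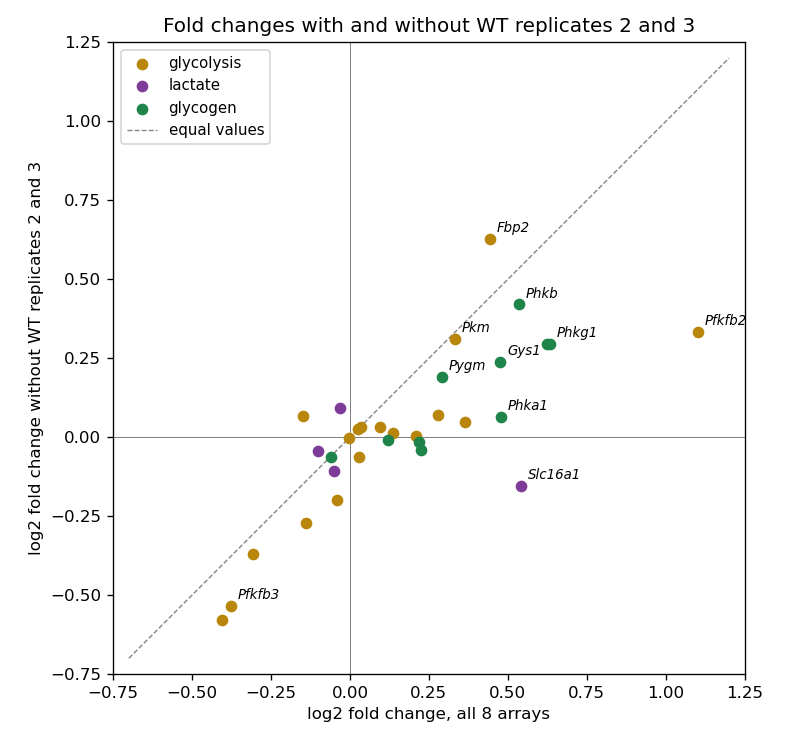
Log2 fold change of each of the 32 genes with all 8 arrays (x axis) and without WT replicates 2 and 3 (y axis), coloured by group, with a dashed line of equal values. Pfkfb2 moves from 1.10 with all arrays to 0.33 and Slc16a1 from 0.54 to -0.15, while Phkb lies at 0.53 and 0.42 and Pkm at 0.33 and 0.31.

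At the entry of glycolysis, the hexokinases trap glucose in the cell. Hk2, the insulin-responsive form of muscle, was at 8.22, 8.14, 8.35 and 8.28 in Ts65Dn and at 8.19, 8.20, 7.32 and 8.16 in WT. WT replicate 3 lay far below the other 7 arrays, which overlapped. The log2 fold change was 0.28 (SE 0.19, limma adjusted p = 0.310), and 0.06 without WT replicate 3. Genes of like level had a median of 0.24, and level matching left 0.03. For Hk1 the fold change was -0.14 (limma adjusted p = 0.485), but the identity of that value is uncertain. The probe set chosen by the rule averaged 10.71 in Ts65Dn and 10.85 in WT, and 16 further probe sets that list Hk1 together with the ribosomal protein gene Rpl17 averaged 9.95 to 11.65 over all arrays. The other probe set annotated to Hk1 alone averaged 4.20 in Ts65Dn and 4.11 in WT, with a log2 fold change of 0.09.

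Pfkm, the muscle phosphofructokinase, was at 10.45, 10.51, 10.43 and 10.45 in Ts65Dn and at 10.44, 10.26, 10.34 and 10.41 in WT. The groups overlapped at WT replicate 1. The log2 fold change was 0.09 (SE 0.10), with a 95% interval from -0.14 to 0.33 and a limma adjusted p of 0.524. Pfkl and Pfkp, the liver and platelet forms, were dim, both under the median level, with log2 fold changes of 0.03 and -0.04. At that level the genes nearest to each had medians of -0.28 and -0.31.

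Of the PFKFB genes, Pfkfb2, best known from heart, had the largest fold change of all 32 genes. It was at 6.40, 6.84, 6.07 and 6.10 in Ts65Dn and at 6.11, 4.68, 4.28 and 5.92 in WT. WT replicates 2 and 3 lay over 1 log2 unit below all other arrays, and WT replicate 1 lay within the Ts65Dn range. The means were 6.35 ± 0.36 in Ts65Dn and 5.25 ± 0.90 in WT (SD, n = 4 each), a log2 fold change of 1.10 (SE 0.38, 2.15-fold, limma adjusted p = 0.0801), and 0.33 without those 2 arrays. Genes of like level had a median of 0.15.

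Pfkfb3, the form with the highest kinase activity relative to its phosphatase activity, went the other way, at 5.38, 5.13, 5.60 and 5.21 in Ts65Dn and 5.80, 5.63, 5.46 and 5.93 in WT. All Ts65Dn arrays but replicate 3 lay below the WT range. The log2 fold change was -0.38 (SE 0.15, limma adjusted p = 0.105), and it was -0.53 without WT replicates 2 and 3, where the limma adjusted p was 0.209. The 100 genes of like level had a median of 0.00. Pfkfb4, a further form, stood at -0.15 (limma adjusted p = 0.554), and at 0.16 after level matching.

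Next in the pathway, Aldoa, the aldolase of muscle, had a log2 fold change of 0.14, and 0.03 without WT replicate 3, its lowest array at 11.60. Aldoc, the form known from brain, was at 4.06, 4.34, 4.54 and 4.41 in Ts65Dn and at 4.79, 4.37, 4.77 and 5.04 in WT. Ts65Dn replicates 1 and 2 lay below the WT range. Its log2 fold change of -0.40 (SE 0.16, limma adjusted p = 0.113) stood beside a median of -0.33 for genes of like level, which leaves -0.08 after level matching. Tpi1, the triose phosphate isomerase, stood at 0.21 (limma adjusted p = 0.285), and 0.00 without WT replicates 2 and 3.

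The later steps of the pathway yield the ATP. Pgk1, the phosphoglycerate kinase, averaged 11.13 ± 0.06 in Ts65Dn and 11.13 ± 0.03 in WT (SD, n = 4 each), with a 95% interval of the difference from -0.23 to 0.23. The muscle mutase Pgam2 was at 11.99, 11.99, 11.85 and 12.07 in Ts65Dn and at 11.89, 11.77, 12.12 and 12.02 in WT, a log2 fold change of 0.03 (SE 0.12, limma adjusted p = 0.886). Eno3, the muscle enolase, was at 11.47, 11.55, 11.51 and 11.52 in Ts65Dn and at 11.52, 11.37, 11.41 and 11.63 in WT, a log2 fold change of 0.03 (SE 0.11, limma adjusted p = 0.860). For these 3 enzymes the groups overlapped, and their 95% intervals reached no further than -0.24 and 0.29. Pgam1, the mutase of most other tissues, stood at 0.36 (limma adjusted p = 0.185), and 0.05 without WT replicates 2 and 3.

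Pkm, the pyruvate kinase of muscle and most tissues, was at 9.86, 9.71, 10.02 and 10.22 in Ts65Dn and at 9.58, 9.53, 9.68 and 9.70 in WT. Each Ts65Dn array lay above the WT range, replicate 2 by the smallest margin. The means were 9.95 ± 0.22 in Ts65Dn and 9.62 ± 0.08 in WT (SD, n = 4 each), a log2 fold change of 0.33 (SE 0.13, 1.26-fold, limma adjusted p = 0.110). It was 0.31 without WT replicates 2 and 3 and 0.24 without Ts65Dn replicate 4, the array with high Myh4. A second probe set of Pkm had means of 8.49 ± 0.34 in Ts65Dn and 8.68 ± 0.21 in WT (SD, n = 4 each), a log2 fold change of -0.19, so that the 2 probe sets disagreed in sign. The mean of both gave 0.07.

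At the branches of the pathway, Fbp2, the fructose bisphosphatase of muscle, which runs the phosphofructokinase step backwards, was at 7.62, 6.90, 7.29 and 7.60 in Ts65Dn and at 5.89, 7.39, 6.79 and 7.56 in WT. WT replicate 1 was the lowest array here, and the groups overlapped. The log2 fold change was 0.44 (SE 0.33, limma adjusted p = 0.338), and 0.11 without WT replicate 1. Genes of like level had a median of 0.37, and level matching left 0.10. Gpd1, which turns a glycolytic intermediate into glycerol 3-phosphate, stood at -0.31 (limma adjusted p = 0.204).

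**Figure D5:**
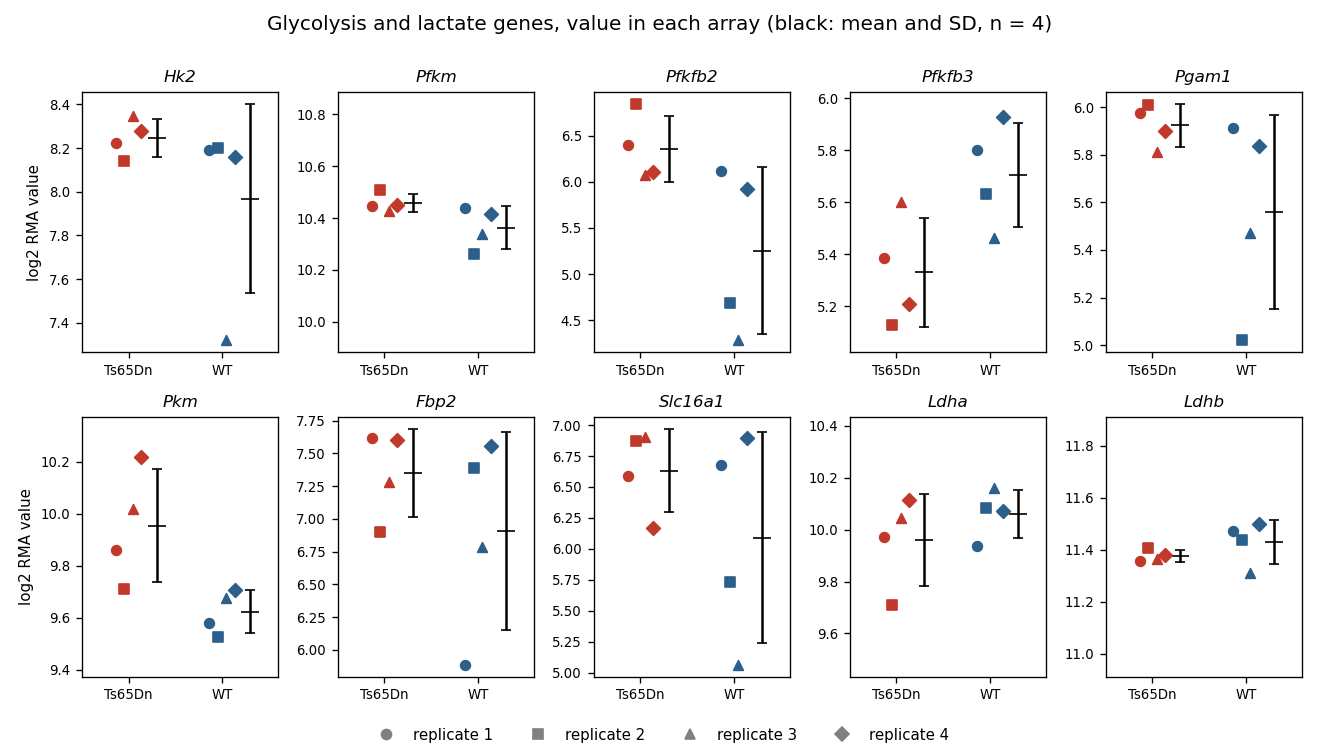
Log2 RMA value (y axis) of 10 glycolysis and lactate genes in each Ts65Dn array (left) and WT array (right), with the marker shape giving the replicate number and black bars the mean and SD of 4 arrays. WT replicates 2 and 3 (square and triangle) lie apart for Pfkfb2, Pgam1 and Slc16a1, WT replicate 3 alone for Hk2, and the groups overlap for Pfkm, Ldha and Ldhb.

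In lactate handling, 0 of the 4 genes had an unadjusted p under 0.05, against 34.8% of all genes. Ldha, the subunit that dominates in fast muscle, was at 9.97, 9.71, 10.04 and 10.12 in Ts65Dn and at 9.94, 10.08, 10.16 and 10.07 in WT. Ldhb, the subunit that dominates in heart and oxidative muscle, was at 11.36, 11.41, 11.36 and 11.38 in Ts65Dn and at 11.47, 11.44, 11.31 and 11.50 in WT. Both sets of arrays overlapped. The log2 fold changes were -0.10 for Ldha (SE 0.12, 95% interval -0.38 to 0.17, limma adjusted p = 0.569) and -0.05 for Ldhb (SE 0.10, 95% interval -0.28 to 0.18, limma adjusted p = 0.737). Both turned positive when each array was centred on its median, at 0.08 for Ldha and 0.13 for Ldhb. Other normalizations moved both further below 0. Quantile normalization gave -0.22 for Ldha and -0.08 for Ldhb, and cyclic loess -0.26 and -0.12. Genes of like level had medians of 0.14 and 0.03, and level matching left -0.22 for Ldha and -0.07 for Ldhb.

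The transporter gene Slc16a1 (MCT1, which serves lactate uptake in oxidative fibres) was at 6.59, 6.87, 6.90 and 6.17 in Ts65Dn and at 6.67, 5.73, 5.06 and 6.90 in WT. WT replicates 1 and 4 lay among the Ts65Dn arrays and WT replicates 2 and 3 below all of them. Its difference of 0.54 (limma adjusted p = 0.290) turned to -0.15 without those 2 arrays. Slc16a3 (MCT4, the lactate exporter of glycolytic fibres) stood at -0.03 (limma adjusted p = 0.929), with Ts65Dn arrays from 5.35 to 6.27 and WT arrays from 5.70 to 6.15.

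Other genes of the same pathways were counted from 2 lists. Of 18 measured genes among 21 listed for glycolysis, lactate and pyruvate, 0 were called by limma, against 5.26% of all genes. At an unadjusted p under 0.05, 3 were higher and 1 lower (22.2%), against 34.8% of all genes. The median log2 fold change was -0.12. Adpgk, an ADP-dependent glucokinase, had a log2 fold change of 0.51 beside -0.33 for genes of like level, and Mpc1, a subunit of the mitochondrial pyruvate carrier, one of 0.49, which was 0.16 without WT replicates 2 and 3. The oxygen-sensing factor Hif1a was at 0.58, and at 0.15 without those arrays. Pklr, the pyruvate kinase of liver and red cells, was at -0.53, and at -0.27 without them, where genes of like level had a median of -0.30 with all arrays. Their limma adjusted p-values ran from 0.0573 to 0.103.

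Of 16 measured genes among 17 listed for glycogen, limma called 1 higher and 0 lower, beside 2.32% and 2.94% of all genes. At an unadjusted p under 0.05, 3 were higher and 3 lower (37.5%), near the 34.8% of all genes. The median was 0.15. The called gene was Pgm5, a relative of the phosphoglucomutases that is known as a cell adhesion protein rather than an enzyme of glycogen. It was at 6.67, 6.76, 6.38 and 6.56 in Ts65Dn and at 5.74, 5.87, 6.04 and 5.85 in WT, a log2 fold change of 0.72 (SE 0.13, limma adjusted p = 0.0456). The groups stood apart also without WT replicates 2 and 3, at 0.80, but 11 of 18 alternatives lost the call, with adjusted p-values from 0.0207 to 0.174. Phka2, the alpha subunit of phosphorylase kinase in liver, stood at 0.60 (limma adjusted p = 0.0578), and 0.53 without WT replicates 2 and 3. Nhlrc1, the ubiquitin ligase malin of Lafora disease, was at -0.50 (limma adjusted p = 0.0569), with all 4 Ts65Dn arrays below the WT range, where genes of like level had a median of 0.38. Ppp1r3d, a glycogen-targeting subunit of protein phosphatase, was at -0.48 (limma adjusted p = 0.0752) beside -0.30 for genes of like level.

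Because fast and slow fibres differ in these enzymes, fibre markers were read on the same arrays. Of 9 slow and 12 fast fibre markers, 0 were called by limma and 0 had an unadjusted p under 0.05, against 5.26% and 34.8% of all genes. The median log2 fold change was 0.06 for slow and 0.13 for fast markers. Myh7, the slow myosin heavy chain, had a log2 fold change of 0.26, Myh2 and Myh1 had 0.12 and 0.26, and Myh4 had 1.26, with the high value in Ts65Dn replicate 4 given above. The mean over the 12 fast markers was 10.70 to 11.36 in Ts65Dn arrays and 10.55 to 10.73 in WT arrays. These ranges overlapped, and the 11.36 was that of Ts65Dn replicate 4. Over the 9 slow markers the mean was 11.48 to 11.66 in Ts65Dn and 11.29 to 11.57 in WT. Casq2, the calsequestrin of slow fibres, had the smallest p of the slow list (0.59, limma adjusted p = 0.147), and Actn3, the alpha-actinin of fast fibres, that of the fast list (1.38, limma adjusted p = 0.148). Actn3, like Myh4, was highest in Ts65Dn replicate 4, at 9.26, against 5.04 to 7.76 on the other arrays. Among markers of other cells, limma called 1 of 5 macrophage, 1 of 5 endothelial and 1 of 5 fibroblast genes higher, beside 2.32% of all genes, and 0 of 2 red blood cell, 5 fat cell and 3 Schwann cell genes. These were Cd68 at 2.39, Kdr at 0.99 and Pdgfra at 0.62 on the log2 scale. The call was lost in 14 of 18 alternatives for Cd68, in 9 for Kdr and in 9 for Pdgfra. Mean levels over the 5 macrophage markers were 4.88 to 5.52 in Ts65Dn and 4.30 to 4.65 in WT, a gap in which Cd68 has the largest share, since Adgre1 was at -0.05, Csf1r at 0.09, Cd163 at 0.29 and Mrc1 at 0.31. Over the 5 endothelial markers they were 5.85 to 6.22 in Ts65Dn and 5.27 to 5.72 in WT. Beside Kdr, Tek was at 0.74, Pecam1 at 0.58 and Cdh5 at 0.54, but Vwf was at -0.12. Without WT replicates 2 and 3, Tek was at 0.53, Pecam1 at 0.14, Cdh5 at 0.33 and Vwf at -0.07. Over the 5 fibroblast markers the mean levels overlapped, at 6.55 to 6.84 in Ts65Dn and 6.54 to 6.70 in WT, and the collagen genes Col1a1, Col1a2 and Col3a1 were at -0.35, -0.24 and -0.06. Their part in the values of the glycolysis and glycogen genes was not tested.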

How the data were processed

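Expression was measured in soleus muscle of 4 Ts65Dn and 4 WT mice on Affymetrix arrays, from amplified total RNA. The deposited values are gene-level log2 values made with Affymetrix Expression Console 1.1 and RMA, per the submitters' processing notes; that they are on the log2 scale was read from their range. The authors' genome build is not given in the sources used here. The annotation of the array gives 1 gene symbol for 21789 of 35556 probe sets, more than 1 for 1621, and no symbol for 12146. RefSeq supplied the current symbol for 21698 probe sets, and 91 kept the old one. The brightest probe set stood for each of 19938 genes.

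Ts65Dn was compared with WT by limma 3.58.1 in R 4.3.3 (lmFit and eBayes, no covariate), with Benjamini-Hochberg adjustment over all genes. Precision is limited by having 4 arrays a group. Level matching subtracts, per array, the median deviation of the 100 genes nearest in mean level outside the members and lists. All members are named; values per array are given for the 10 with the smallest p and for genes fixed by name (Hk2, Pfkm, Pgam2, Eno3, Ldha, Ldhb, Pygm, Gys1 and Fbp2; Gapdh, also fixed, was not measured). Slc16a1 and Pgm5 were given per array after their values were seen. The rule names up to 4 genes with the smallest p of each further list, and Myh7, Myh2, Myh1 and Myh4. Tnnc1, Tnnc2 and the macrophage, endothelial and fibroblast markers beyond the called ones were named after their values were seen. The array values of Actn3 were also added then. The members and lists were chosen with earlier results of these data known. The alternatives were other normalizations, centring, level matching, the mean of a gene's probe sets, a filter on dim genes, a replicate block, array weights, a variance trend, another threshold, and leaving out arrays. No sample label says that replicate numbers pair the samples, so the main fit used no pairing.

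On simulated data with 19938 genes and 200 changed, the test found 75% of changes of 1 and 99% of changes of 2 on the log2 scale, 2.25% of its calls were false, and it made 0 calls with none changed. The simulated noise was independent between genes and held no shift of whole arrays, such as these groups show. These rates therefore cannot be carried over to the real arrays. Changes under 1, the size of most values reported here, were not simulated. Tables and figures were made with Python 3.11.15, pandas 2.3.3 and matplotlib 3.10.9.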

Additional observations from a re-analysis of the deposited data

Results flagged for a closer look

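In 6 of the 64 groups of 4 arrays formed by the 32 genes, 1 array stood far below the other 3 by Dixon's test at its 95% critical value; chance gives about 1 in 20 groups. In 4 of the 6 the array was WT replicate 3. It was at 7.32 for Hk2, where the other WT arrays ran from 8.16 to 8.20, and at 3.49 for Pfkp, where they ran from 4.19 to 4.29. It was at 11.60 for Aldoa, beside 11.99 to 12.06, and at 6.22 for Pgm1, beside 7.56 to 7.62. In the Ts65Dn group, replicate 1 was at 3.94 for Pfkfb4, where the other arrays ran from 4.24 to 4.26, and replicate 4 was at 8.26 for Phkb, beside 8.60 to 8.65.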

How the results depend on the processing

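The count of 0 lower members held in all alternatives run, and 0 higher members in all but 2. It was 4 at an adjusted p under 0.1 and 4 without WT replicate 1, with a range of 0 to 4 over the arrays left out in turn. Over all genes, limma's calls of 462 higher and 587 lower became 0 and 0 after quantile normalization, 107 and 35 after cyclic loess, 911 and 79 with centred arrays, 73 and 17 with level matching, 294 and 142 for genes above the median level, 159 and 77 with array weights, 1 and 0 without WT replicates 2 and 3, 1 and 0 with all probe sets adjusted together, 1754 and 3207 at an adjusted p under 0.1, and 0 to 1215 and 0 to 1650 with 1 array left out. With the replicate number as a block they were 0 and 0, 0 members were called, and Pgm5, Cd68, Kdr and Pdgfra had limma adjusted p-values of 0.0530 to 0.0544. Same-numbered samples correlated at 0.01 to 0.09 in their deviations. The best-correlated WT sample had the same number for Ts65Dn replicates 3 and 4, but not for 1 and 2. Such low values in so few samples cannot decide whether the numbers pair them.

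The glycogen median stayed positive in all 18 alternatives (0.13 to 0.57), lowest at 0.13 without WT replicates 2 and 3. The glycolysis median ran from 0.02 to 0.22, with 0.22 for centred arrays and 0.12 for genes above the median level. The lactate median was 0.14 with centred arrays and -0.0885 to 0.0546 with 1 array left out. It was -0.13 after quantile normalization, -0.11 after cyclic loess and -0.09 with level matching.

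Of 571 gene values under alternatives, 519 kept direction and side, 48 changed sign (in 16 members, often near 0) and 4 passed the threshold. The sign turned with centred arrays for Hk1 (0.045), Pfkp (0.14), Pfkfb4 (0.0335), Pgk1 (0.18), Ldha (0.0823), Ldhb (0.13), Slc16a3 (0.15) and Pgm2 (0.12). It turned after quantile normalization for Hk2 (-0.0001), Pfkp (0.18), Pfkfb4 (0.0681), Eno3 (-0.0001) and Pgm2 (0.16), and after cyclic loess for Pfkm (-0.0432), Pfkp (0.25), Pfkfb4 (0.14), Eno3 (-0.0333) and Pgm2 (0.23). Level matching turned Pfkp (0.25), Pfkfb4 (0.16) and Pgm2 (0.21), the mean of probe sets Pgk1 (0.0076), and array weights Pgk1 (0.0044), Eno3 (-0.0073) and Slc16a3 (0.0176). Without WT replicates 2 and 3 it turned for Pfkfb4 (0.0678), Eno3 (-0.0644), Slc16a1 (-0.15), Slc16a3 (0.0911), Gyg (-0.0080), Ugp2 (-0.0418) and Gbe1 (-0.0156). With 1 array left out, values ran from -0.23 to 0.10 for Pfkp, -0.0265 to 0.0181 for Pgk1, -0.0319 to 0.0845 for Pgam2, -0.0074 to 0.0794 for Eno3, -0.18 to 0.13 for Slc16a3 and -0.13 to 0.0127 for Pgm2. The cause was not tested.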
